A study of Mus musculus with 8 samples.

Results

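Circadian clock and clock output genes were followed in mouse thalamic tissue. They were 10 genes, chosen by name as Per1, Per2, Per3, Ciart, Bhlhe40, Nr1d1, Nr1d2, Dbp, Tef and Hlf, of 19938 genes that the arrays measured under a single gene symbol. For each gene the probe set with the highest mean level was used. Male C57BL/6 mice that were 6 weeks old at the outset gave the RNA, and each of 8 mice had an Affymetrix array of its own. There were 4 groups with 2 mice in each. Controls were injected with saline every 24 hr for 4 weeks. The other 3 groups were injected on the same schedule with MPTP, a dopamine neuron toxin that serves as a model of parkinsonism, at a dose of 20 mg/kg. The MPTP group had no needling. The acupoint group was also needled on both sides at GB34 (3 mm deep) and LR3 (1 mm deep), points of the leg and foot, in 14 sessions 48 hr apart that began 2 hr after the first injection. The non-acupoint group was needled 3 mm deep at both hips on the same plan. Needled mice were held by hand, and the labels name no handling for the control and MPTP groups. The hour of day at which tissue was taken is not given in the sources used here. With 2 mice a group, p-values rest on the spread between mice pooled over the groups.

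The circadian clock is a feedback loop that runs in nearly every cell, in the thalamus as elsewhere. CLOCK and BMAL1 (the product of Arntl) bind E-box sequences and switch on the Period and Cryptochrome genes, whose proteins then repress CLOCK and BMAL1. The same E-boxes drive the nuclear receptors REV-ERB alpha and beta (Nr1d1, Nr1d2), which repress Arntl, the repressors CIART and BHLHE40, and DBP, which with TEF and HLF forms the PAR bZIP family of D-box binding activators. In a tissue that keeps time, Arntl and the genes of the Dbp and Nr1d1 kind peak at nearly opposite hours.

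Promoter windows, running from 250 bases before to 50 bases after a RefSeq transcription start (GRCm38.p6), were matched for 8 of the 10 genes, all but Per2 and Bhlhe40. Per1 and Tef had 2 windows each. They were searched on both strands for the E-box CACGTG, the D-box TTATGTAA, the cyclic AMP response element TGACGTCA and the element bound by REV-ERB and ROR receptors. Ciart, Per1, Per3 and Hlf are shown, because between them they hold each kind of match that was found, and Ciart holds the most. Matches are in capitals, and no matches overlapped in these windows.
Ciart, chr3:95882179-95882478, minus strand: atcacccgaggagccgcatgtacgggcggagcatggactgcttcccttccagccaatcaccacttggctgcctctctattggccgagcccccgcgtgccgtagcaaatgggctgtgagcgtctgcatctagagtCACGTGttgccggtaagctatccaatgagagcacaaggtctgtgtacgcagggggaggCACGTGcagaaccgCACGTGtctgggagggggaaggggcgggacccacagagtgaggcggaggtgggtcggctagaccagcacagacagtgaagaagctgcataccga
Per1, chr11:69098699-69098998, plus strand: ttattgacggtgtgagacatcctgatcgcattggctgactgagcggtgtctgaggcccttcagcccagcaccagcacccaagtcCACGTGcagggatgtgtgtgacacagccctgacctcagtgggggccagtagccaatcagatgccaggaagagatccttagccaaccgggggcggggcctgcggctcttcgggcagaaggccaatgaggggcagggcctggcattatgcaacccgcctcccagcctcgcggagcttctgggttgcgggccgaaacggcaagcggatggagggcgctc
Per3, chr4:151044616-151044915, minus strand: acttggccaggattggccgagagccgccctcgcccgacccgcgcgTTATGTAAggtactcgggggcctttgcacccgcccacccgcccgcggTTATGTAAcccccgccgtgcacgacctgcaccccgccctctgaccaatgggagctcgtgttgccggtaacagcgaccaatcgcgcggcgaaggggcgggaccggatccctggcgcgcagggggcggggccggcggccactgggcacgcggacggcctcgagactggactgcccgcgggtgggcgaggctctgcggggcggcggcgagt
Hlf, chr11:90390868-90391167, minus strand: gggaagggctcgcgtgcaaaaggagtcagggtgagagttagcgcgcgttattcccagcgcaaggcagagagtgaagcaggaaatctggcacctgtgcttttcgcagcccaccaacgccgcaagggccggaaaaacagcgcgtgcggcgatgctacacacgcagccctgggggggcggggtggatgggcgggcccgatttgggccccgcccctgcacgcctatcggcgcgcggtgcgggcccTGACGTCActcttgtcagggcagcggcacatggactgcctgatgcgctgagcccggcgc
Ciart held 3 E-boxes, which began 116, 58 and 44 bases before the start. Per1 held 1 E-box, 166 bases before the more upstream of its starts, and each Tef window held 1. Per3 held 2 D-boxes, 205 and 158 bases before the start. Hlf held a cyclic AMP response element 9 bases before the start. Of 32851 RefSeq windows of this length, 7.15% held the E-box and 0.0883% held 3 or more. The D-box was in 0.938% of windows, with 2 or more in 0.0213%. The cyclic AMP response element was in 1.79%, and the REV-ERB and ROR element, which no member window held, in 0.219%.

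The arrays that stood apart were those of mouse 1 in the MPTP group and mouse 1 in the non-acupoint group. Across 35557 probe sets, r was 0.987 between them, 0.952 to 0.969 between either and the rest, and 0.984 to 0.991 within the remaining 6. Values without these 2 arrays (6 arrays) are given beside those for all 8, which leaves 1 array each in the MPTP and non-acupoint groups. The spread of the control and acupoint pairs has to stand in for theirs (2 residual degrees of freedom). Over all probe sets the median size of a difference was 0.08 and 0.09 in those pairs, against 0.39 and 0.31 in the MPTP and non-acupoint pairs. The SE and adjusted p with the 6 arrays thus rest on the tighter pairs, and a pass there is less firm than it looks. Median log2 levels were 6.18 to 6.29 per array, and depth on an array is its signal over background. Slc17a6, the vesicular glutamate transporter gene of thalamic relay neurons, was at log2 levels of 10.97 to 11.69, and 14 of 14 thalamic markers passed the brightness limit for testing (a mean log2 level of 5.63). Markers of neighbouring regions were bright as well and differed between mice. The mean of 6 striatal markers, each relative to its own average, was 1.45 in MPTP mouse 1, -0.68 in MPTP mouse 2 and -1.09 to 0.24 in the others. Slc6a3, the dopamine transporter gene of midbrain neurons, was at 9.96 and 9.83 in controls and 6.09 to 9.39 in injected mice, and Pmch, a lateral hypothalamic peptide gene, was at 10.14 and 10.18 in controls and 6.61 to 10.62 in injected mice. RNA of genes that mark other regions was thus present, at levels that differed between mice, and dissection and treatment cannot be told apart in these values. Of 8 markers of the suprachiasmatic nucleus, the master clock of the hypothalamus, 4 (Vip, Prok2, Six6 and Nms) had mean levels of 4.47 to 5.28, under that limit, and 4 (Avp, Lhx1, Syt10 and Vipr2) passed it with means of 6.07 to 7.96. In injected mice Vipr2 differed from control by 1.08 ± 0.12 (SE), Avp by -1.10 ± 0.23 and Lhx1 by -0.44 ± 0.14, so these markers did not share a direction. None of these 3 passed with all 8 arrays (limma), and Syt10 overlapped. With the 6 arrays Vipr2 differed by 1.05, Avp by -0.91 and Lhx1 by -0.46. Whether a gene passed with the 6 arrays is given below for clock and glucocorticoid genes only, and not for region markers. All 10 clock members passed that limit.

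Hlf, Ciart, Bhlhe40, Per1 and Nr1d2 were above both controls in all 6 MPTP-injected mice, by 1.74-fold, 1.45-fold, 1.72-fold, 1.34-fold and 1.10-fold on average. Thalamic markers were higher and midbrain dopamine and hypothalamic markers lower between the same groups, with values given at the end. In bulk tissue, more cells of a type and more RNA per cell cannot be told apart. Per2, Per3, Nr1d1, Dbp and Tef overlapped between injected and control mice. Such separation of higher levels held for 5 of the 10 members and for 10.3% of the 15791 probe sets tested. No member passed the test over all 8 arrays (limma with Benjamini-Hochberg adjustment, adjusted p under 0.05), and neither did any other probe set (0% called). At an unadjusted p under 0.05, Ciart and Hlf passed, 2 of 10 members where 7.07% of probe sets did. The median log2 change of the members was 0.30 over 8 arrays and 0.12 over 6 arrays, against -0.01 and 0.00 over all probe sets. With the 6 arrays Hlf, Ciart and Bhlhe40 passed (3 of 10 members, 5.41% of probe sets), and 6 of 10 members were above both controls in each of the remaining injected mice, where 17.7% of probe sets were. Without control mouse 1 or control mouse 2 none of the 3 passed with these arrays, and the smallest adjusted p among the members was 0.164 and 0.103.

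**Figure D1:**
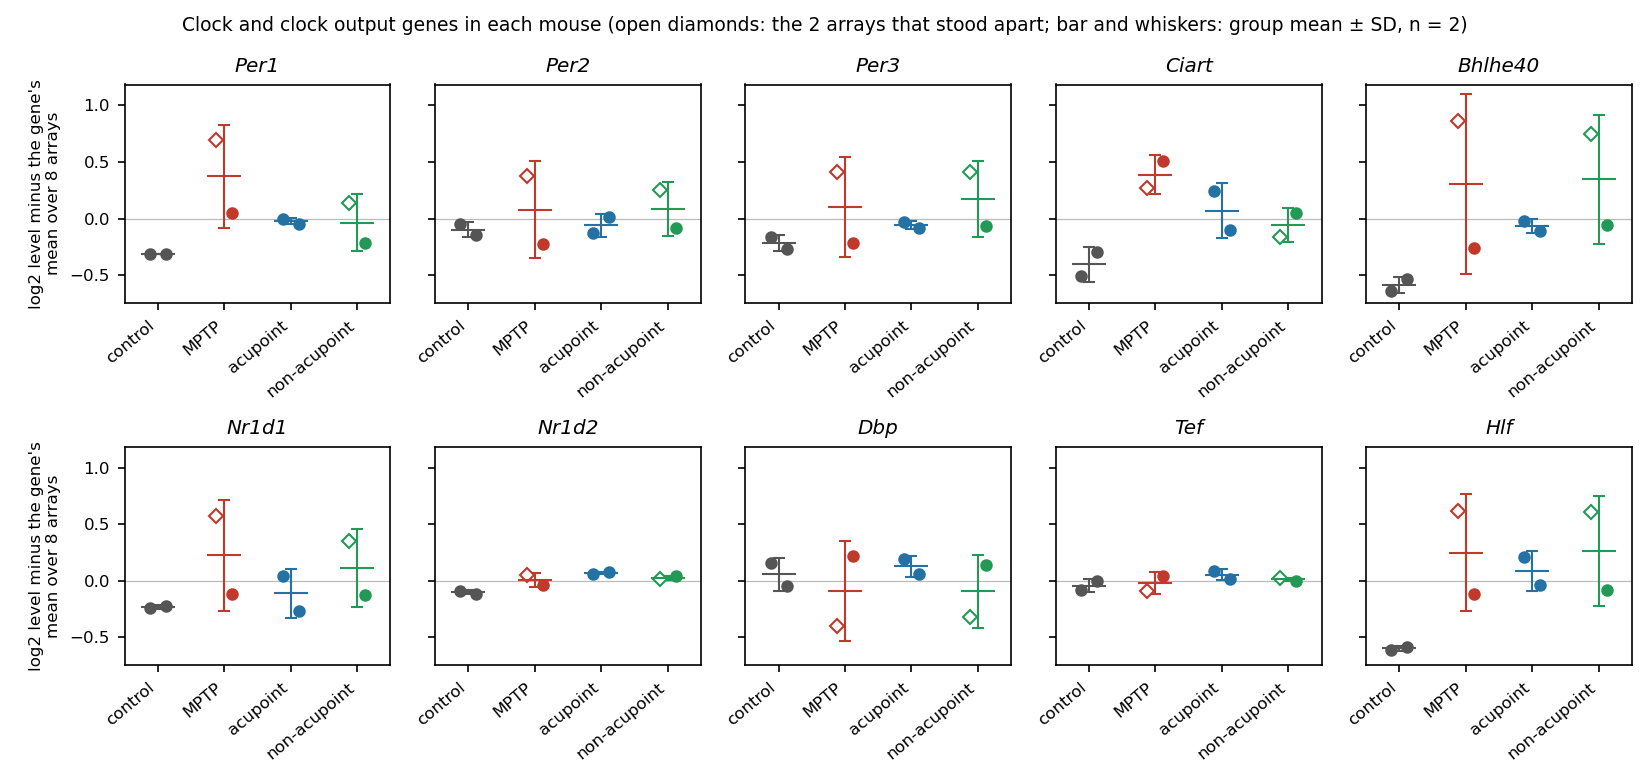
Log2 level of each gene in each of the 8 mice, minus that gene's mean over the 8 arrays, by group. Bars and whiskers are group means ± SD (n = 2), and open diamonds are MPTP mouse 1 and non-acupoint mouse 1. In Bhlhe40, Hlf and Per3 the diamonds are the highest values, at 0.864 and 0.750 for Bhlhe40, and in Dbp they are the lowest.

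The Period genes encode the repressors that close the clock's loop. Per1, the member that also answers acutely to neuronal activity and glucocorticoids, was at log2 levels of 7.81 and 7.81 in controls, 8.82 and 8.17 in MPTP mice, 8.12 and 8.08 in acupoint mice and 8.26 and 7.91 in non-acupoint mice. Every injected mouse was above both controls, and MPTP mouse 1 was highest. The log2 change from control was 0.69 ± 0.23 (SE) in MPTP mice and 0.42 ± 0.19 over all injected mice (adjusted p = 0.722, limma), and 0.25 ± 0.06 over the 6 arrays (adjusted p = 0.0717, limma).

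Per2, whose protein is the main partner of the Cryptochromes in repression, was at 7.31 and 7.21 in controls, 7.74 and 7.14 in MPTP mice, 7.23 and 7.37 in acupoint mice and 7.61 and 7.27 in non-acupoint mice. Only the 2 arrays that stood apart were above the range of the other 6, which spanned 0.24 log2 units. The injected mice differed from control by 0.13 ± 0.19 over 8 arrays and by -0.03 ± 0.07 over the 6 (SE). Per3, a Period gene with a lesser part in the core loop, had the same arrangement, with 7.13 and 7.03 in controls, 7.71 and 7.08 in MPTP mice, 7.27 and 7.22 in acupoint mice and 7.71 and 7.23 in non-acupoint mice. Its change in injected mice was 0.29 ± 0.20 over 8 arrays and 0.11 ± 0.07 over 6. The 3 Period genes thus did not share 1 arrangement, since only Per1 separated controls from all injected mice.

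Ciart encodes a repressor of CLOCK and BMAL1 and held the 3 E-boxes shown above. It was the member with the smallest p in MPTP mice against control. Its levels were 7.98 and 8.19 in controls, 8.76 and 9.00 in MPTP mice, 8.73 and 8.39 in acupoint mice and 8.33 and 8.54 in non-acupoint mice. Controls were lowest, MPTP mice were highest, and the arrays that stood apart lay within the range of the others. The change in MPTP mice was 0.79 ± 0.18 (SE), a 1.73-fold difference (adjusted p = 0.624, limma), and 0.91 ± 0.17 over the 6 arrays, where MPTP mouse 2 alone stands for its group. Over all injected mice it was 0.54 ± 0.15 (adjusted p = 0.474, limma), and 0.61 ± 0.12 with the 6 arrays (adjusted p = 0.0451, limma). A further Ciart probe set correlated with this one at r = 0.927 over the 8 arrays and gave smaller changes. It differed by 0.52 ± 0.18 in MPTP mice and by 0.26 ± 0.15 over all injected mice, where non-acupoint mouse 1 (7.67) was below both controls (7.72 and 7.82). With the 6 arrays it did not pass (0.36 ± 0.10, adjusted p = 0.0866, limma).

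Bhlhe40 (DEC1), a repressor that competes for E-boxes and is also induced by neuronal activity and low oxygen, had the widest range of the members over 8 arrays, while over the 6 arrays Ciart (1.02 log2 units) and Hlf (0.82) ranged more widely than Bhlhe40 (0.62). It was at 7.84 and 7.95 in controls, 9.35 and 8.22 in MPTP mice, 8.46 and 8.37 in acupoint mice and 9.23 and 8.42 in non-acupoint mice. Controls were lowest, and the arrays that stood apart were far above the rest. Its change in injected mice was 0.78 ± 0.33 over 8 arrays (adjusted p = 0.708, limma) and 0.46 ± 0.07 over 6 (adjusted p = 0.0231, limma).

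The REV-ERB receptors repress Arntl and set its timing. Nr1d1 was at 9.77 and 9.79 in controls, 10.58 and 9.89 in MPTP mice, 10.05 and 9.74 in acupoint mice and 10.36 and 9.88 in non-acupoint mice. Both MPTP mice were above controls, by 0.46 ± 0.28 (SE), but acupoint mouse 2 was below both controls. Nr1d2 was at 10.07 and 10.05 in controls, 10.21 and 10.12 in MPTP mice, 10.22 and 10.24 in acupoint mice and 10.18 and 10.20 in non-acupoint mice. The injected mice were all above controls by a small amount, 0.14 ± 0.10 over 8 arrays and 0.13 ± 0.06 over 6 (adjusted p = 0.738 and 0.253, limma).

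The PAR bZIP activators carry the clock's rhythm to its output genes, and the 3 members differed from each other. Hlf was at 9.44 and 9.47 in controls, 10.66 and 9.94 in MPTP mice, 10.26 and 10.01 in acupoint mice and 10.66 and 9.97 in non-acupoint mice. Every injected mouse was above controls by at least 0.468 log2 units. Its change over all injected mice was 0.80 ± 0.25 over 8 arrays (adjusted p = 0.556, limma) and 0.56 ± 0.09 over 6 (adjusted p = 0.0258, limma). Dbp, the member with the strongest daily rhythm in most tissues, was at 9.24 and 9.03 in controls, 8.68 and 9.30 in MPTP mice, 9.27 and 9.14 in acupoint mice and 8.76 and 9.22 in non-acupoint mice. The groups overlapped, and only the arrays that stood apart were low, so that the change in injected mice was -0.08 ± 0.21 over 8 arrays and 0.10 ± 0.09 over 6. Tef stayed within 0.18 log2 units in all 8 mice, from 8.81 to 8.99, and its change in injected mice was 0.06 ± 0.10.

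**Figure D2:**
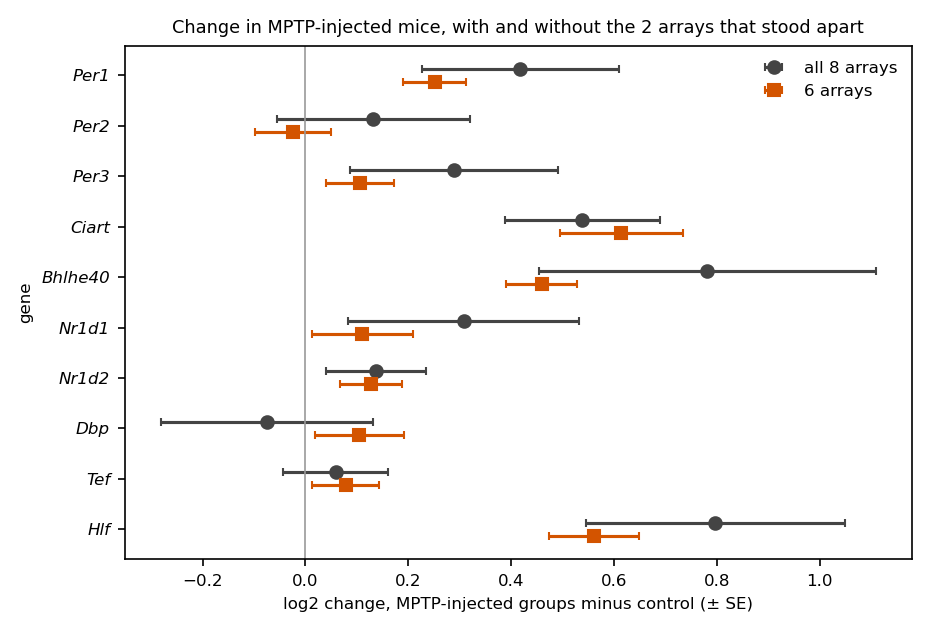
Log2 change of each gene in the 3 MPTP-injected groups against control, ± SE, over all 8 arrays (circles) and over the 6 arrays (squares). Ciart, Bhlhe40 and Hlf are at 0.61, 0.46 and 0.56 over the 6 arrays, while Per2 is at -0.03.

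MPTP alone was compared with control to ask what the toxin changed. Per1, Ciart, Bhlhe40, Hlf, Nr1d1 and Nr1d2 were higher in both MPTP mice than in both controls, 6 of 10 members where 18.2% of probe sets were, and 0 were lower in that way, where 20.4% of probe sets were. The members' median log2 change was 0.39, against -0.02 over all probe sets, and 0.14 when MPTP mouse 1 was left out. Without MPTP mouse 2 it was 0.65. None passed by limma over 8 arrays (0% of probe sets called), and Per1, Ciart and Hlf had an unadjusted p under 0.05, 3 of 10 members where 5.29% of probe sets did. With the 6 arrays none passed either (0.361% of probe sets called).

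To see what needling at the acupoints changed, those mice were set against MPTP mice without needling. Ciart and Per1 were lower in both acupoint mice than in both MPTP mice, by -0.32 ± 0.18 and -0.40 ± 0.23 (SE), which was 2 of 10 members where 12.5% of probe sets were lower in that way. Nr1d2 was higher by 0.06 ± 0.12, 1 of 10 members where 14.5% of probe sets were higher. The members' median was -0.16. It was 0.06 without MPTP mouse 1 and -0.45 without MPTP mouse 2, so its sign followed which MPTP mouse was used. None passed by limma (0% called; adjusted p of 0.889 or more), and 0 of 10 had an unadjusted p under 0.05, where 1.37% of probe sets did.

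After hip needling, Ciart was lower than in MPTP mice by -0.44 ± 0.18 (SE), with both non-acupoint mice below both MPTP mice. It was the single member without overlap, 1 of 10 where 6.74% of probe sets were lower in that way (0 of 10 were higher, against 5.67%), and its further probe set differed by -0.45 ± 0.18. Its unadjusted p was 0.0498 by limma (1 of 10 members, 1.56% of probe sets), and no member passed after adjustment (0.0443% of probe sets called). The median over members was 0.01. It was -0.31 without MPTP mouse 2, -0.25 without non-acupoint mouse 1, 0.15 without MPTP mouse 1 and 0.09 without non-acupoint mouse 2. Acupoint and hip needling were compared directly as well. Nr1d2 alone did not overlap, higher in acupoint mice by 0.04 ± 0.12 (1 of 10 members, 13.8% of probe sets; 0 were lower, against 18%). The members' median was -0.07, none passed (0% called), and 0 of 10 had an unadjusted p under 0.05, where 1.89% of probe sets did. The comparisons with MPTP share the MPTP mice. Over all 4 groups, an F test by limma passed no member (0% of probe sets called), and Ciart had the smallest unadjusted p (0.0239, 1 of 10 members under 0.05, 3.54% of probe sets).

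Fkbp5, a glucocorticoid-induced chaperone gene, had group levels ordered as those of Ciart. It was at 7.82 and 7.71 in controls, 8.56 and 8.73 in MPTP mice, 8.55 and 8.12 in acupoint mice and 7.82 and 8.30 in non-acupoint mice. Its log2 change was 0.88 ± 0.22 (SE) in MPTP mice and -0.58 ± 0.22 after hip needling against MPTP alone. Sgk1, a kinase gene induced by the same hormone, changed by 0.54 ± 0.20 and -0.73 ± 0.20, and neither gene passed (adjusted p of 0.661 or more, limma). Over the 6 arrays Fkbp5 passed in all injected mice against control (0.69, adjusted p = 0.0389, limma) and Sgk1 did not (0.28, adjusted p = 0.221, limma). These genes were named with earlier results known, and over 8 arrays the 11 tested glucocorticoid-induced genes did not share their direction. The list then had a median of 0.07 in MPTP mice against control, with 7 above and 4 below 0 (Mt2 at -1.50). Its median over all injected mice was -0.04, with 5 above and 6 below 0. Over the 6 arrays these medians were 0.28 and 0.13, with 10 and 8 of the 11 genes above 0. Mt2 was at 8.79 and 8.95 on the arrays that stood apart and at 12.08 to 12.37 on the others. Markers of the choroid plexus, the epithelium that makes cerebrospinal fluid, were high in MPTP and acupoint mice, which overlapped, and lowest in non-acupoint mice. The mean of their 12 tested genes, each relative to its own average, was -0.58 and -0.56 in controls, 1.26 and 1.27 in MPTP mice, 0.69 and 1.28 in acupoint mice and -1.72 and -1.64 in non-acupoint mice. Ciart was higher in non-acupoint mice than in controls, where these markers were lower, and their part in the Ciart result was not tested.

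The within-group differences of the members were largely those of the 2 arrays that stood apart. MPTP mouse 1 exceeded mouse 2 in 7 of 10 members, with a signed median difference of 0.62 over the 10. Of all probe sets, 49.5% were higher in mouse 1, with a signed median of -0.005 and a median size, sign ignored, of 0.39. Non-acupoint mouse 1 exceeded mouse 2 in 7 of 10 members too, by a median of 0.35, where 49% of probe sets were higher. In controls mouse 1 was higher in 5 of 10 members (55.7% of probe sets) with a median difference of -0.01, and in acupoint mice in 8 of 10 (44%) with 0.08. Over all probe sets the median size of a difference was 0.31 in the non-acupoint pair, 0.08 in controls and 0.09 in acupoint mice, so the wider spread of the MPTP and non-acupoint pairs was not one of the members alone. On these 2 arrays the mean of 52 ribosomal protein genes was -0.47 and -0.36 relative to its average, against 0.07 to 0.19 on the other 6. The mean of 8 cold-inducible and heat shock genes was -0.63 and -0.65 there, against 0.12 to 0.30. Cirbp, a cold-inducible RNA-binding protein gene that supports clock amplitude, was at 8.87 and 8.54 on these arrays and at 9.46 to 10.32 on the others, and Rbm3, its close relative, at 9.72 and 9.15 against 10.58 to 11.26. Whether these shifts bear on the members was not tested.

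**Figure D3:**
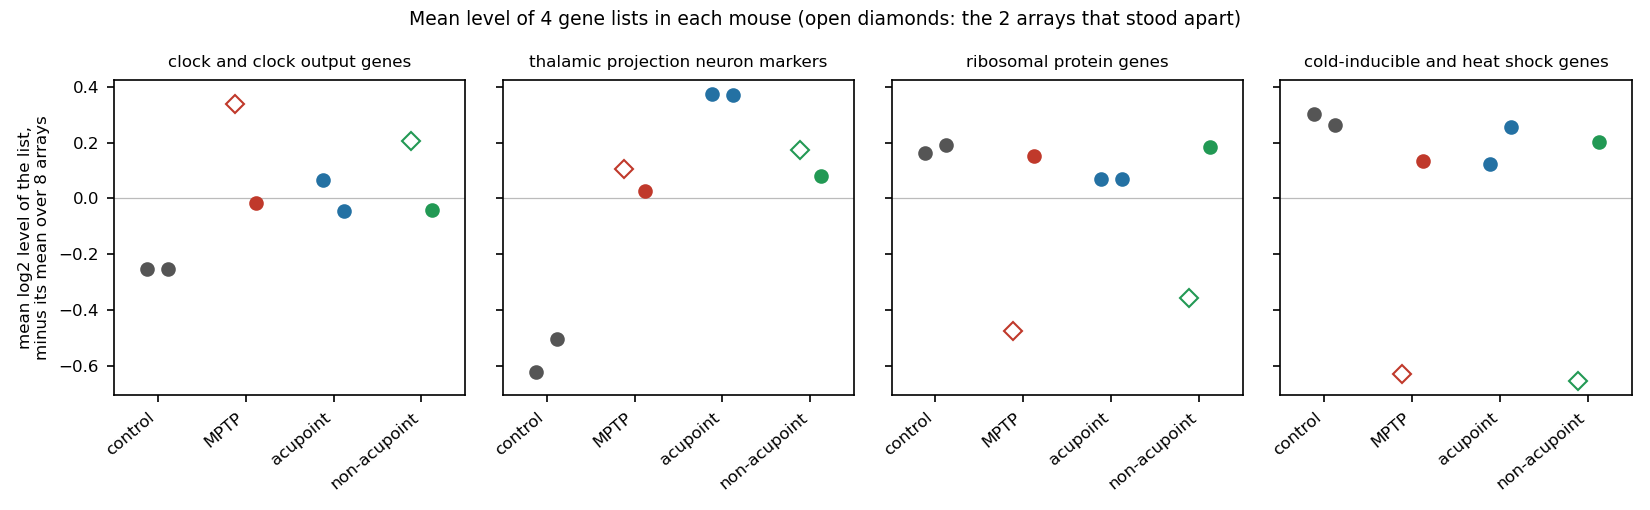
Mean log2 level of 4 gene lists in each mouse, each gene taken relative to its mean over the 8 arrays. Open diamonds are the 2 arrays that stood apart, which are lowest in the ribosomal (-0.47 and -0.36) and temperature (-0.63 and -0.65) lists and highest in the clock members (0.34 and 0.21).

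Pairs of members varied together in ways that depended on these arrays. Bhlhe40 and Hlf correlated at r = 0.97 over 8 arrays and 0.96 over 6. Per3 and Bhlhe40 correlated at 0.97 and 0.79. Dbp ran against Per1 over 8 arrays (r = -0.70) and with it over 6 (0.56), and against Nr1d1 in the same way (-0.82 and 0.56). The points are arrays that share groups, so these values describe the set and carry no test. The named genes most like the mean of the 10 members, by the lower of r over 8 and over 6 arrays, were Farp2, Pde4d, Gbe1, Inip, Sh3gl2 and Clmn, with both values from 0.97 to 0.99. Pde4d, a phosphodiesterase gene that ends cyclic AMP signals, ran from 8.62 and 8.72 in controls to 9.28 in MPTP mouse 1. The most opposite were Tpi1, H13, Usp27x and Prmt2 (-0.98 to -0.99). Tpi1, a glycolytic enzyme gene, was at 11.72 and 11.71 in controls and 11.27 to 11.60 in injected mice.

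The rest of the clock was read from 18 other clock genes, of which 15 had a tested probe set. In injected mice 4 of the 15 were above both controls in every mouse (Rora, Rorb, Usp2 and Cry2) and 0 were below, where 10.3% and 9.66% of probe sets were. None passed over 8 arrays (limma, 0% called), and the same 4 had an unadjusted p under 0.05 (4 of 15, 7.07% of probe sets). With the 6 arrays Rora, Rorb and Usp2 passed (3 of 15, 5.41% of probe sets). Rora, which encodes an activator of Arntl, was at 9.89 and 9.96 in controls and 10.31 to 10.76 in injected mice, a change of 0.65 ± 0.12 (SE) over 8 arrays and 0.70 ± 0.07 over 6 (adjusted p = 0.222 and 0.00889, limma). Its relative Rorb was at 8.41 and 8.40 in controls and 8.75 to 9.34 in injected mice (0.70 ± 0.15, adjusted p = 0.301, limma). Usp2, a ubiquitin protease gene that acts on clock proteins, was at 8.16 and 8.14 in controls and 8.45 to 8.96 in injected mice (0.62 ± 0.11, adjusted p = 0.222, limma). Thalamic markers were higher between the same groups, and their part in the values of these genes was not tested.

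The core activators did not separate controls from injected mice. Arntl was at 7.69 and 7.63 in controls, 8.54 and 7.62 in MPTP mice, 7.83 and 7.94 in acupoint mice and 8.55 and 7.86 in non-acupoint mice. Clock, its partner, was at 8.91 and 8.81 in controls, 9.44 and 8.73 in MPTP mice, 8.94 and 9.03 in acupoint mice and 9.30 and 9.04 in non-acupoint mice. Both were highest on the arrays that stood apart, the same arrays on which Per1, Per2, Per3 and Nr1d1 also had their 2 highest levels. Cry2, a Cryptochrome gene, changed by 0.39 ± 0.14 (SE) in injected mice, and Cry1 by 0.13 ± 0.11. Nfil3, a repressor at D-boxes, changed by -0.28 ± 0.17, and Bhlhe41, the relative of Bhlhe40, by 0.14 ± 0.12. None of these passed (adjusted p of 0.643 or more, limma).

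**Figure D4:**
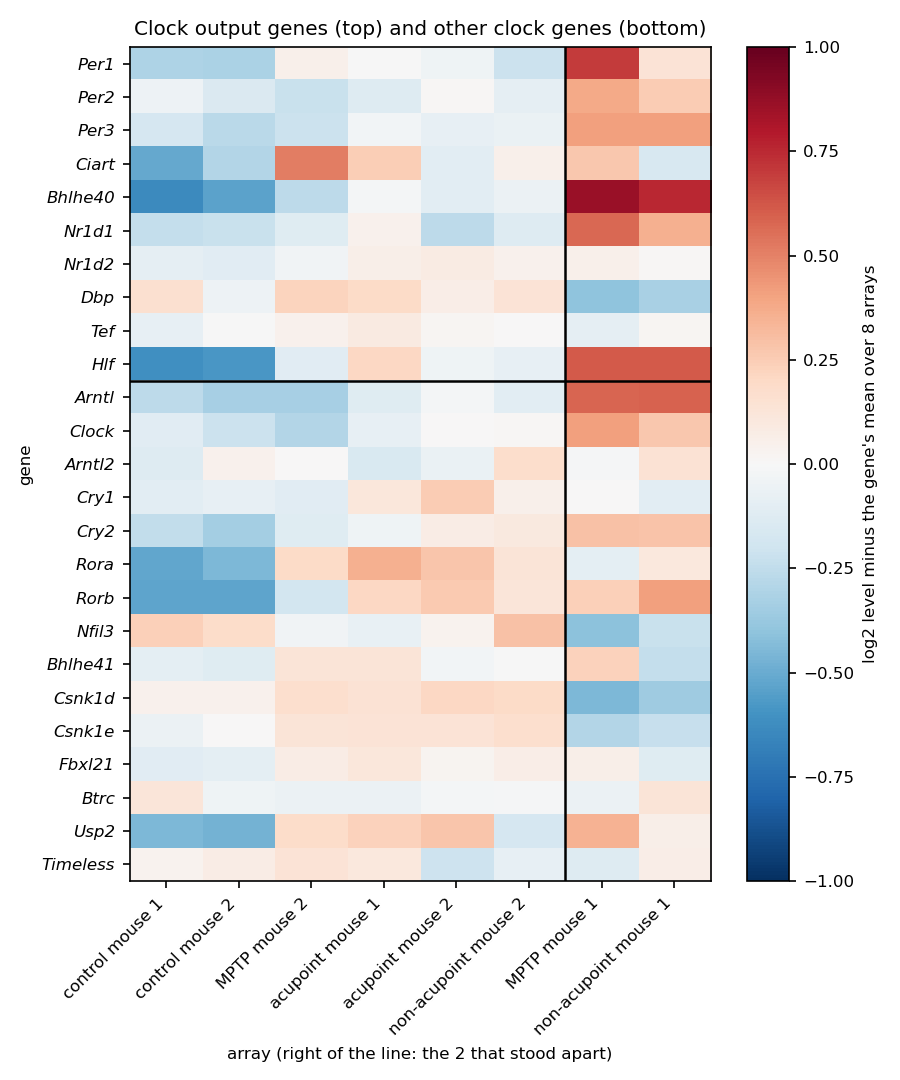
Log2 levels of the 10 members (top) and the 15 other tested clock genes (bottom) in each mouse, relative to each gene's mean over the 8 arrays (colour, -1 to 1). The 2 columns on the right are the arrays that stood apart, where Bhlhe40 is 0.864 and 0.750 above its mean. Hlf, Rora, Rorb and Usp2 are lowest in the controls.

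Genes known as targets of the clock or of PAR bZIP factors (Wee1, Nampt, Klf9, Klf10, Lonrf3, Alas1 and Pdxk) had a median log2 change of 0.09 in injected mice over 8 arrays and 0.03 over 6. Of these 7 genes 1, Alas1, was above both controls in every injected mouse, where 10.3% of probe sets were. Fos, an immediate early gene, changed by -0.26 ± 0.19 (SE) in injected mice (adjusted p = 0.739, limma). The 9 tested immediate early genes had a median of 0.07 in that comparison, with 5 above and 4 below 0, from Fos to Npas4 at 0.46. Dusp1 at 0.37 had an unadjusted p of 0.0295 by limma, 1 of 9 genes under 0.05 where 7.07% of probe sets were. Dusp1 differed from control by 0.02 ± 0.16 in MPTP mice. Against MPTP mice it was higher by 0.47 ± 0.16 in acupoint mice and by 0.59 ± 0.16 in non-acupoint mice.

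Thalamic projection neuron markers were higher in injected mice over the 6 arrays. Of 14 such genes, 14 were above 0 over the 6 arrays (median 0.76). With the 6 arrays 12 of 14 were above both controls in each of the remaining injected mice, where 17.7% of probe sets were. By limma 0 of 14 passed over all 8 arrays (0% of probe sets called). Over these 8 arrays 11 of 14 had an unadjusted p under 0.05, where 7.07% of probe sets did. Over 8 arrays 13 of 14 were above 0 (median 0.83), and 10 of 14 were above both controls in every injected mouse, where 10.3% of probe sets were. The mean of the list, each gene relative to its own average, was -0.62 and -0.50 in controls and 0.03 to 0.37 in injected mice. Midbrain dopamine neuron markers differed the other way. Of 7 tested, 6 were below both controls in every injected mouse, where 9.66% of probe sets were, with a median log2 change of -1.78 over 8 arrays and -1.50 over 6. The mean of that list was 1.30 and 1.13 in controls and -0.98 to 0.80 in injected mice. Of 7 hypothalamic markers, 4 were below both controls in every injected mouse, with a median of -1.13 over 8 arrays and -0.49 over 6, and the mean of the list was 0.66 and 0.74 in controls and -1.23 to 0.50 in injected mice. None of these dopamine and hypothalamic markers passed over 8 arrays (limma). At an unadjusted p under 0.05, 5 of 7 dopamine and 4 of 7 hypothalamic markers passed, where 7.07% of probe sets did.

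The mean of the thalamic list correlated with Nr1d2 at r = 0.93 over 8 arrays and 0.95 over 6, with Hlf at 0.74 and 0.97, with Bhlhe40 at 0.58 and 0.96, with Per1 at 0.49 and 0.82, and with Ciart at 0.62 and 0.68. It was 0.57 and 0.81 for Tef, 0.44 and 0.75 for Per3, 0.36 and 0.51 for Nr1d1, 0.24 and 0.11 for Per2 and -0.10 and 0.33 for Dbp. The mean of the ribosomal list correlated over 8 and 6 arrays with Per3 at -0.97 and -0.65, Nr1d1 at -0.95 and -0.32 and Per2 at -0.95 and -0.34. Values for Bhlhe40 were -0.94 and -0.58, for Per1 -0.88 and -0.69, for Hlf -0.86 and -0.70 and for Dbp 0.91 and -0.25. For Nr1d2 they were -0.41 and -0.74, for Tef 0.31 and -0.57 and for Ciart -0.19 and -0.29. The part of the thalamic, ribosomal, dopamine and hypothalamic genes in the values of the members was not tested.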

How the data were processed

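Thalamic RNA (300 ng per array) of 8 mice was analysed from the deposited log2 levels, which the authors made with Affymetrix Expression Console and RMA, per the submitters' processing notes (versions not given in the sources used here). RMA corrects background, draws the arrays to a common distribution and summarizes probe sets, which compresses small differences of dim ones. Of 35557 probe sets, those with a gene symbol and above the dimmest 40% by mean level (log2 5.63) were tested (15791, 13524 genes with a single symbol). Group means were estimated from the 8 arrays together with limma 3.58.1 in R 4.3.3 (4 residual and 2.53 prior degrees of freedom), two-sided, with Benjamini-Hochberg adjustment over all probe sets tested. Changes are log2 differences ± SE. When tested on simulated data (MPTP against control, 15791 probe sets), 43.3% of 67 planted 2-fold changes were recovered. The 8 false calls were those of the whole run, which also held planted 4-fold and 8-fold changes (74.6% and 87.9% recovered). Its noise had 1 spread per probe set on all 8 arrays and was independent between arrays. In the data the MPTP and non-acupoint pairs spread more widely than the others, so these shares may not carry over. An exact permutation test of 2 against 2 mice cannot give p under 0.333 and was not used.

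The members, gene lists and tests were chosen with earlier results of these data known. Named genes are the 10 members, core clock genes, clock list genes past the threshold in any fit given, a few stress genes and the genes most like or opposite to the members' mean. Alas1, Dusp1, Mt2, Npas4 and the markers of neighbouring regions were added after their values were seen. Gene symbols come from the platform annotation, and all 10 members matched RefSeq by identifier. Alternatives were other normalizations, filters and moderation, array weights, a block, and leaving out mice. The 6 arrays less a further mouse were chosen after seeing the data.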

Additional observations from a re-analysis of the deposited data

How the results depend on the processing

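Under 14 alternative settings, 680 of 700 single-member changes stayed within the spread between replicates, and 37 changed sign, each no larger than 0.41. Settings that alter only the filter, the moderation or the groups fitted cannot move a log2 change, and neither can the block. Array weights did not move that of Hlf in injected mice against control either (0.797 in both). Most of the 14 settings are of these kinds, so most of the 680 values were fixed by construction and say little on robustness. The spread used also includes the 2 arrays that stood apart, which widen it. In injected mice against control, the number of members past the threshold was 1 with array weights (Hlf, adjusted p = 0.0484, limma), 3 with the 6 arrays and 1 with a term for the arrays that stood apart (Hlf, adjusted p = 0.0328, limma), against 0 in all other settings that kept every mouse. The median of the members in that comparison was 0.12 with the 6 arrays and 0.12 with the term. In MPTP against control it was 0.14 with either (0.137 and 0.143), and in acupoint against MPTP 0.06 with either (0.0593 and 0.0631), in the other direction from the -0.16 over all arrays. Those settings remove or absorb 2 arrays by construction.

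Leaving out each mouse in turn, the medians ranged from 0.14 to 0.65 in MPTP against control, from -0.45 to 0.06 in acupoint against MPTP, from -0.31 to 0.15 in non-acupoint against MPTP, and from -0.24 to 0.022 in acupoint against non-acupoint, and from 0.19 to 0.41 in injected mice against control, with 0 members past the threshold. With the 6 arrays and a further control or acupoint mouse left out, the injected median ranged from 0.113 to 0.183 and the number past the threshold from 0 to 3. Mouse numbers were not shown to pair the mice, since the correlation of same-numbered deviations ran from -0.28 to 0.82. The mouse number as a block passed 0 members in any comparison (smallest adjusted p = 0.328, limma) and left the injected median at 0.298. The number of arrays limits the precision, and differences of dim probe sets are compressed.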
